A study of Mus musculus with 3 samples.

Results

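Interferon-responding B cells are described here as the spleen B cells whose transcripts included at least 2 of 7 genes that interferon switches on, namely Ifit1, Ifit2, Ifit3, Ifit3b, Rsad2, Usp18 and Isg15. They were selected on unique molecular identifiers (UMIs, each counting 1 captured transcript) among droplets that carried the antibody hashtag of a single mouse and at least 1 UMI of Cd79a, a signalling chain of the B cell receptor. The rule found 131 of 1889 B cells (6.93%), and the 1758 other B cells were the comparison. The UMIs of these 7 genes and of Cd79a chose the cells, so their values are given as a description, with no test.

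Type I interferons bind a receptor made of Ifnar1 and Ifnar2, whose kinases Jak1 and Tyk2 phosphorylate transcription factors that include Stat2. These join Irf9 and bind the interferon-stimulated response element in the promoters of antiviral genes. Interferon-gamma acts through its own receptor and through gamma-activated sites, with a programme rich in GTPases that attack intracellular microbes. B cells respond to both, and in the spleen they include follicular cells, marginal zone cells at the blood interface and, after activation, germinal centre cells that mutate their antibody genes.

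The cells came from 3 LDHA-deficient and 3 LDHA-sufficient mice, and the mouse was the replicate throughout. LDHA is a subunit of lactate dehydrogenase, and tilts the enzyme toward making lactate from pyruvate. Spleen cells of each mouse received their own hashtag against CD45 and MHC class I, were sorted for viability, for B cells and on GL7, which marks B cells that are activated or in germinal centres, and were pooled on 1 lane, from which transcripts, hashtags and antibody heavy chains were read. All 6 mice shared this staining, sort and lane. The Ldha allele, the driver of its deletion, strain, age, any immunization and the mix of GL7 gates were not stated in the sources read here. In the labels, the libraries of hashtags and of heavy chains name hematopoietic stem and progenitor cells, which goes against the sort and against Cd79a in 99.2% of the 1905 single-hashtag barcodes. Nothing in the labels says whether mice shared a litter or cage, so p-values measure the spread between these mice only.

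Ldha served as the check of genotype. In interferon-responding cells it stood at 62.8, 53.1 and 87.6 CPM in LDHA-deficient mice, against 198, 160 and 177 in LDHA-sufficient mice. Here and below, CPM is the UMI count of a gene, summed over the cells of 1 mouse, per 1000000 UMIs of that sum after TMM scaling. The values come from short tags at the transcript start, so they compare a gene between samples and not genes with each other. The genotypes did not overlap, and the labels held in every mouse. The sums held 69763 to 236388 UMIs per mouse for the interferon-responding cells and 1111100 to 2344660 for the other B cells.

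Promoters of most of the 7 genes carry the response element. The windows shown hold the response element GAAANNGAAA (N, any base) on either strand within the 250 bases before the gene start. They include up to 20 bases on each side, in the direction of the gene, from RefSeq on GRCm38.p6. Capitals mark the element, which reads TTTCNNTTTC when it lies on the opposite strand. The first set is shown because its genes chose the cells.

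Ifit1: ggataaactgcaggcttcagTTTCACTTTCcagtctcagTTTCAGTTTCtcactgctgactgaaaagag
Ifit3: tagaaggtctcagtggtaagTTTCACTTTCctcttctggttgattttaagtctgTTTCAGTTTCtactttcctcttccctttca
Rsad2: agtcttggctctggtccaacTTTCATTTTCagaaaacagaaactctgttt
Isg15: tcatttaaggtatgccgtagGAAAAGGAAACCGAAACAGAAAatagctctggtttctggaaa

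They lie at chr19:34640765-34640833 on the plus strand for Ifit1, chr19:34583353-34583436 on the plus strand for Ifit3, chr12:26456543-26456592 on the minus strand for Rsad2 and chr4:156200855-156200916 on the minus strand for Isg15. Ifit1 and Ifit3 each hold 2 matches, and the 3 of Isg15 overlap. The Ifit3b window at chr19:34607749-34607832 is letter for letter that of Ifit3, and since these genes are near-identical copies, how reads were split between them is uncertain. Neither Ifit2 promoter held a match, and Usp18 was not matched to a promoter.

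A second set is shown because its genes were not used by the rule, were higher in the selected cells, as described further on, and held a match. Other higher genes, among them Ifi47, Oasl1 and Oasl2, held no match and are not shown.

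Slfn5: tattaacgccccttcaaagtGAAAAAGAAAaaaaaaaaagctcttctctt
Ifi213: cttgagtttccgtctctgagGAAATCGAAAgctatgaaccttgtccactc
Irgm1: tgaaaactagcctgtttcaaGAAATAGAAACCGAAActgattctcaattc
Igtp: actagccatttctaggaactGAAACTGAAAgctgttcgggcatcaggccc

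Their positions are chr11:82951927-82951976 on the plus strand for Slfn5, chr1:173599316-173599365 on the minus strand for Ifi213, chr11:48871421-48871470 on the minus strand for Irgm1 and chr11:58199502-58199551 on the plus strand for Igtp. The match of Slfn5 runs into a stretch of A. For counts, a promoter window ran from 250 bases before to 50 bases after the gene start. Over all 27025 genes with a promoter window, 1079 (3.99%) held the response element, as did 5 of the 6 rule genes with a window. A second motif, the gamma-activated site TTCNNNGAA, was found in 9.55% of all genes and in 1 of those 6, Ifit2. A match describes the letters of a window and is no evidence of binding.

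The selected cells sat at the end of a steep decline. Of the B cells, 1403 had none of the 7 genes, 355 had 1, 77 had 2, 24 had 3, 7 had 4, 14 had 5, 5 had 6 and 4 had all 7. The cells just outside the rule held 440 UMIs of the 7 genes, which was 1.72 per 10000 UMIs. Those just inside held 220, or 3.99 per 10000, and in the 4 cells with every gene the level was 71.9 per 10000. The most frequent pair among cells with exactly 2 genes was Ifit3 with Isg15, in 19 cells, followed by Ifit2 with Isg15, in 9.

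Depth moved with the rule, since a deeper cell shows more genes. The selected cells had a median of 5377 UMIs and 1968 genes, against 3924.5 UMIs and 1684 genes in other B cells, and more UMIs in 5 of 6 mice. By number of rule genes the median was 3798 UMIs with none, 4668 with 1, 5693 with 2 and 5827.5 with 3. It was 3951 with 4, 3733 with 5, 7183 with 6 and 4351.5 with 7. Other measures of quality were compared as well. The mitochondrial share had a median of 2.34% against 2.30% (exact sign-flip test over 6 mice, two-sided, p = 0.844), and hashtag counts had a median of 1188 against 1186 (same test, p = 0.656). Genes per cell at 2000 UMIs had a median of 1035 against 1063 and were lower in 5 of 6 mice (exact sign-flip test, two-sided, p = 0.0625). With each cell thinned to 2000 UMIs, 59 of the 1822 cells deep enough met the rule (3.24%).

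**Figure D1:**
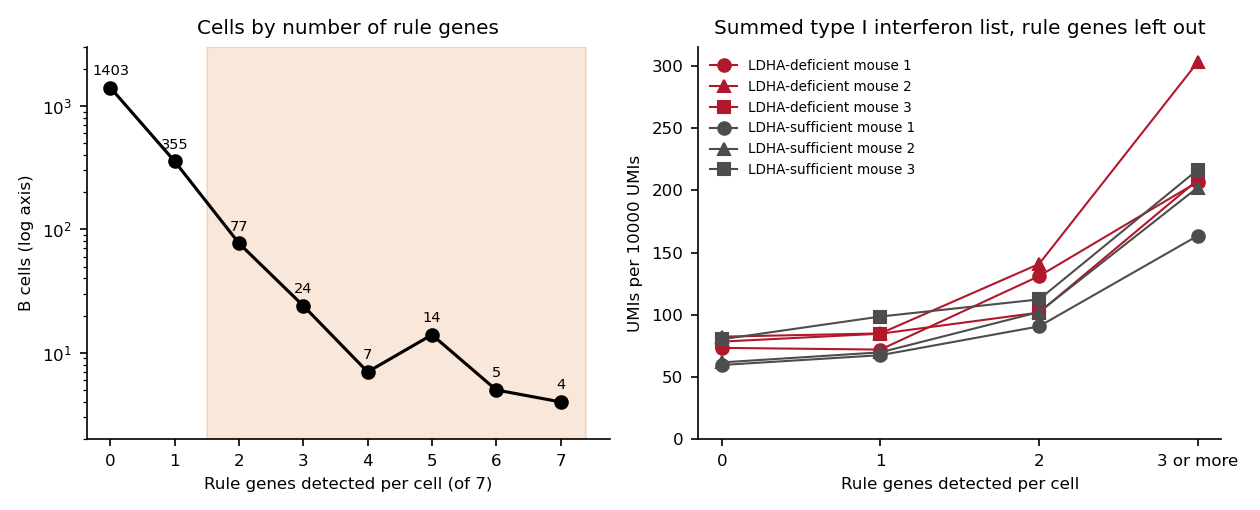
Left, the number of B cells (log axis) by how many of the 7 rule genes each cell held, with the selected range shaded. Right, the summed UMIs of 77 other interferon-stimulated genes per 10000 UMIs, 1 line per mouse; every mouse was highest in cells with 3 or more rule genes, between 163 and 303 per 10000.

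The Ifit proteins, which restrain viral RNA and its translation, account for 4 of the rule genes. Ifit3 stood at 345, 491 and 449 CPM in the selected cells of LDHA-deficient mice and 147, 305.5 and 241 in those of LDHA-sufficient mice, against 5.63, 11.2 and 4.34 and 3.31, 2.04 and 8.81 in the other B cells of the same mice. It had at least 1 UMI in 63.4% of the selected cells and 2.62% of the others. Ifit1 stood at 120, 133 and 76.6 and at 44.7, 41.0 and 32.1 in the selected cells, against 0.805, 4.795 and 1.74 and 1.66, 0.509 and 6.41 in the others. The classes did not overlap for either gene, which the rule itself brings about. Within the selected cells, 4 of the 7 rule genes (Ifit1, Ifit2, Ifit3 and Isg15) were higher in each LDHA-deficient mouse than in any LDHA-sufficient mouse, and the genotypes did not overlap for 11.5% of all genes tested. The genotypes overlapped for the other 3. Ifit3b averaged 77.0 ± 29.1 CPM in LDHA-deficient and 77.2 ± 24.8 in LDHA-sufficient mice (SD, n = 3 each). These genes chose the cells, so the genotype values are a description.

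Isg15, a ubiquitin-like protein that is attached to other proteins during infection, reached 434, 358 and 350.3 CPM in the selected cells of LDHA-deficient mice and 153, 246 and 137 in those of LDHA-sufficient mice. In the other B cells it lay between 15.8 and 25.6, and 9.50% of these cells held a UMI of it, against 64.9% of the selected cells. Isg15 was the rule gene that other B cells held most often. Usp18, the protease that removes Isg15 from proteins and dampens the receptor, had a UMI in 37.4% of selected and 2.28% of other cells, and averaged 104 ± 37.96 CPM in the selected cells of LDHA-deficient mice and 87.1 ± 17.1 in those of LDHA-sufficient mice (SD, n = 3 each). Rsad2, an enzyme that makes a chain-terminating nucleotide, had one in 32.1% of selected and 0.569% of other cells, and averaged 104 ± 33.0 CPM in the selected cells of LDHA-deficient mice and 86.1 ± 24.6 in those of LDHA-sufficient mice (SD, n = 3 each).

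Markers of other cell types were looked for among the selected cells, because a B cell sort can hold them. At least 2 of 12 myeloid markers were found in 13 of the 131 selected barcodes (9.92%) and in 97 of the 1758 others (5.52%). The summed myeloid list reached 10.6 UMIs per 10000 in selected cells, with mice between 1.58 and 43.0, and 8.12 in others, with mice between 1.04 and 45.8. At least 2 markers of plasmacytoid dendritic cells, the specialised producers of type I interferon, were found in 2 selected barcodes (1.53%) and 19 others (1.08%). For T and NK cells the numbers were 1 (0.763%) and 10 (0.569%), and 5 of their 10 markers were at 0 in the selected cells. The summed T and NK list reached 4.08 UMIs per 10000 in selected cells and 0.205 in others. Of its 371 UMIs in selected cells, 356 lay in cells of LDHA-sufficient mouse 2 with exactly 2 rule genes (22.01 per 10000). At least 2 of 5 red cell markers were found in 5 selected barcodes (3.82%) and 31 others (1.76%). Red cell genes summed to 62.4 UMIs per 10000 in selected cells and 0.503 in others, carried by LDHA-sufficient mice 1 and 3 (73.1 and 335 per 10000), and by cells with exactly 2 rule genes (103) rather than those with 3 or more (0.251). Cd79a itself was 2437 CPM in selected and 2420 in other B cells, before TMM scaling.

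Genes outside the rule were tested between the selected and the other B cells of the same mice. Of 8528 genes, 163 were higher (1.91%) and 86 were lower (1.01%) at a Benjamini-Hochberg adjusted p under 0.05 in the quasi-likelihood test of edgeR with the mouse as a block. Of the higher genes, 114 had the same sign in all 6 mice, and 69 belonged to the lists of interferon-stimulated genes. None of the 86 lower genes did. Without TMM scaling the split was 149 higher and 177 lower, and without LDHA-sufficient mouse 2 it was 119 and 37. Cells with exactly 2 rule genes gave 35 and 42. These genes come from the same transcripts of the same cells as the rule genes, so they describe what travelled with the rule and are not separate evidence of a response.

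Interferon-stimulated genes that answer to type I interferon, or to both types, moved almost as a block. Of 77 such genes 71 could be tested, 58 were higher and none was lower, with a median log2 difference of 1.43, against -0.06 over all genes tested. Their summed level was 71.1 UMIs per 10000 in B cells without a rule gene, 78.1 with 1, 108 with 2 and 209 with 3 or more. In selected cells it came to 176, 217 and 146 per 10000 in LDHA-deficient mice and 113, 134 and 140 in LDHA-sufficient mice, against 73.1, 83.0 and 79.7 and 62.1, 63.5 and 85.9 in other B cells. The lowest selected value lay above the highest of the others.

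Slfn5, of the Schlafen family that restrains growth and viruses, showed the smallest adjusted p. It stood at 408, 810 and 230 CPM in the selected cells of LDHA-deficient mice and 179, 233 and 410 in those of LDHA-sufficient mice, against 45.1, 60.2 and 45.2 and 29.0, 35.7 and 77.7 in other B cells. The classes did not overlap, and the log2 difference was 2.87 (SE 0.16, edgeR adjusted p = 2.24e-24). Rtp4, which curbs viral replication, differed by 3.01 (SE 0.26, edgeR adjusted p = 9.57e-15), with selected cells between 59.3 and 305.3 and other B cells between 7.64 and 29.6. Slfn1, a relative of Slfn5, rose by 2.92 (SE 0.71, edgeR adjusted p = 0.00525, or 0.166 against other B cells of matched UMIs).

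The oligoadenylate synthetases, which sense double-stranded RNA and set off RNA decay, and their relatives rose together. Oasl1 stood at 120, 92.9 and 186 CPM in the selected cells of LDHA-deficient mice and 63.8, 105 and 121 in those of LDHA-sufficient mice, against 7.87 to 20.8 in other B cells. Its log2 difference was 2.88 (SE 0.26, edgeR adjusted p = 3.38e-15), and those of Oasl2, Oas3 and Oas2 were 2.72, 2.68 and 2.47. The cytoplasmic RNA sensors Ifih1 and Dhx58 were higher by 2.70 and 2.01, and Zbp1, which senses Z-form nucleic acid, by 2.14 (SE 0.22, edgeR adjusted p = 1.05e-12). Cmpk2, a nucleotide kinase that lies beside Rsad2, rose by 2.38, and Lgals3bp, a secreted galectin-binding protein, by 2.30. All of these were higher in the selected cells of each of the 6 mice.

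Among genes that carry the signal, factors rose and the receptors gave no call. Stat2 rose by 1.12 on the log2 scale and Irf9 by 0.71, both past the threshold. Irf7, the factor that amplifies the response, rose by 2.16 and was at 0 in the selected cells of LDHA-deficient mouse 3. The receptors and their kinases, 8 genes tested, gave 0 higher and 0 lower, with a median of -0.03. Ifnar2 had the smallest p among them (0.47, edgeR adjusted p = 0.444), and Ifnar1 and Jak1 differed by 0.04 and 0.07. The negative regulators, 8 tested, also gave 0 calls, with a median of -0.09. Socs1, the feedback inhibitor of the kinases, came closest at 1.52 (edgeR adjusted p = 0.056).

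**Figure D2:**
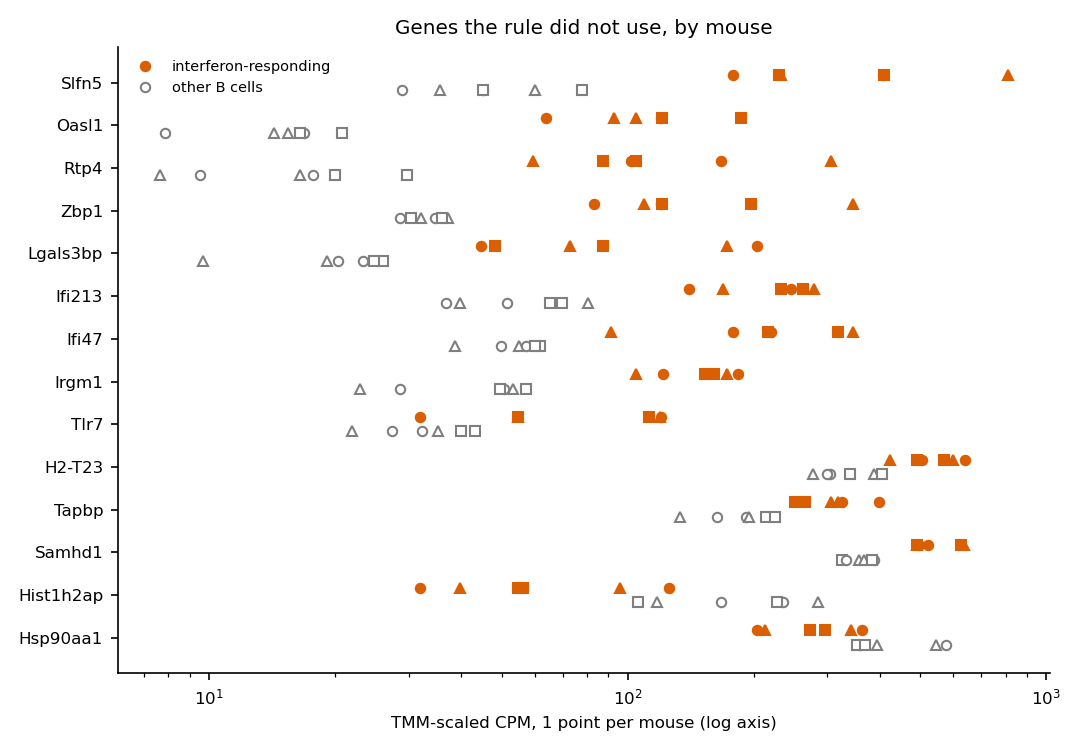
TMM-scaled CPM (log axis) of 14 genes that the rule did not use, 1 point per mouse and class (circles, triangles and squares are mice 1, 2 and 3 of either genotype). Interferon-responding cells lie to the right of other B cells without overlap for Slfn5 down to Irgm1, overlap with them for Tlr7, and lie mostly to the left, with some overlap, for Hist1h2ap and Hsp90aa1.

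The GTPases and factors that lean towards interferon-gamma were raised as well. Of 19 tested, 11 were higher and 0 lower, with a median log2 difference of 1.29. Ifi47, an immunity-related GTPase, stood at 220, 345 and 317 CPM in the selected cells of LDHA-deficient mice and 179, 91.2 and 217 in those of LDHA-sufficient mice, against 38.7 to 61.7 in other B cells (1.98, SE 0.18, edgeR adjusted p = 2.25e-15). Irgm1, a regulator of that family, rose by 1.83, Tgtp2 by 1.81, Igtp by 1.78 and the guanylate-binding protein Gbp6 by 2.10. Ciita, the master factor of MHC class II that interferon-gamma induces, did not pass (-0.11, edgeR adjusted p = 0.85), nor did Irf1 (0.50, edgeR adjusted p = 0.24). Ifi213, a member of the DNA-binding family encoded on chromosome 1, is on the type I list and rose by 1.97 (SE 0.17, edgeR adjusted p = 2.42e-16).

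Transcripts of the interferons themselves were nearly absent. Of 21 interferon genes in the files, 19 had 0 UMIs in every barcode of the lane. Ifng had 6 UMIs in 2 barcodes, 5 of them in a selected cell of LDHA-sufficient mouse 2 with exactly 2 rule genes, the mouse and group of cells that hold the T and NK UMIs given above, and Ifnk had 4 UMIs in 4 barcodes, none in the selected or the other single-hashtag B cells. Cells outside the sort, which could make interferon, were not analysed here.

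The response element shown above recurred in the promoters of the genes that were higher. The element was present in 40 of the 128 higher genes with a window (31.2%), in 0 of the 51 lower genes with one and in 276 of the 6724 tested genes with one (4.10%). The gamma-activated site was present in 13.3%, 5.88% and 8.09% of the same sets. Some windows repeat: those of Ifi208 and Ifi213 are letter for letter the same, as are those of Trim30a and Trim30d, and each gene was counted. These shares are a description of letters and were not tested.

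Sensors of nucleic acids split into those that rose and those that did not pass. Of 11 tested, 3 were higher and 0 lower (median 0.31). Tlr7, the endosomal receptor for single-stranded RNA, stood at 120, 119 and 54.7 CPM in the selected cells of LDHA-deficient mice and 31.9, 54.7 and 113 in those of LDHA-sufficient mice, against 32.2, 35.2 and 39.9 and 27.3, 21.9 and 43.3 in other B cells. Each mouse was higher in its selected cells, although the ranges overlapped (1.28, SE 0.26, edgeR adjusted p = 0.000305). Tlr3, its counterpart for double-stranded RNA, rose by 1.97 (edgeR adjusted p = 0.0475), a call made in 9 of 21 settings and lost against other B cells of matched UMIs (edgeR adjusted p = 0.333) and without germinal centre-like and non-B clusters (0.16). It was among the 10 leading genes of the marginal zone-like cluster described below. Among the other sensors, Samhd1, which depletes nucleotides, rose by 0.59 (edgeR adjusted p = 0.000718). Tlr9, the DNA receptor, was 0.59 higher with an adjusted p of 0.22 in edgeR.

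Antigen presentation changed in a few members of class I. Of 21 class I genes tested, 3 were higher and 0 lower (median 0.25). H2-T23, which presents leader peptides to NK cell receptors, stood at 638, 597 and 493 CPM in the selected cells of LDHA-deficient mice and 504, 424 and 571 in those of LDHA-sufficient mice, against 304.95, 387 and 340 and 299, 277 and 405 in other B cells (0.69, SE 0.13, edgeR adjusted p = 5.06e-05). H2-T22 rose by 0.85 and Tapbp, the chaperone that loads peptide, by 0.77. B2m, the shared light chain, was 0.34 higher (edgeR adjusted p = 0.072) and the peptide pump Tap1 0.52 higher (edgeR adjusted p = 0.051), both short of the threshold, while the classical H2-K1 and H2-D1 differed by 0.15 and 0.21. Of 10 class II genes 0 passed, with a median of -0.06.

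**Figure D3:**
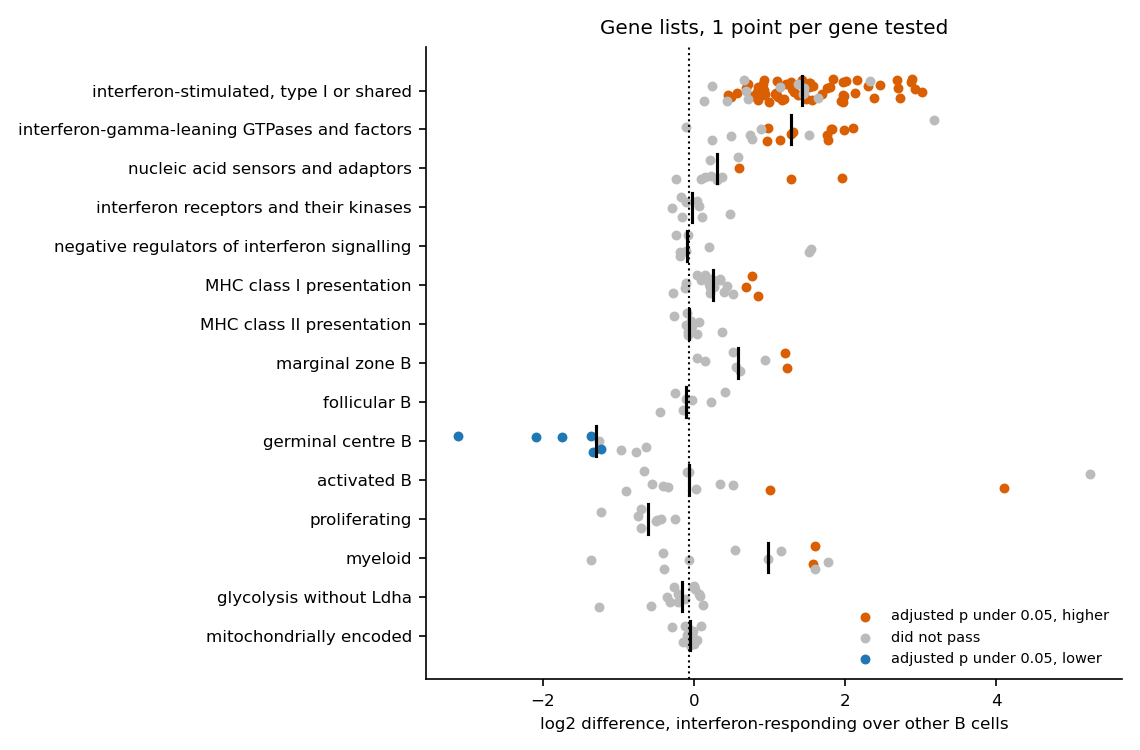
Log2 difference of interferon-responding over other B cells for each gene tested of 15 lists, with the median of each list as a bar and the median of all genes (-0.06) as a dotted line. The 2 interferon lists at the top have medians of 1.43 and 1.29, and the germinal centre list has the lowest, -1.29.

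Genes of the germinal centre fell. Of 10 tested, 6 were lower and 0 higher, with a median of -1.29. S1pr2, the receptor that confines B cells to the germinal centre, had 3 UMIs in all selected cells and 318 in the others (edgeR adjusted p = 0.000755). Basp1 fell by 2.08 on the log2 scale (SE 0.43, edgeR adjusted p = 0.00501), the transcription factors Mybl1 and Mef2b by 1.34 and 1.36, and the G-protein regulator Rgs13 by 1.22. Basp1 stood at 10.5, 0 and 10.9 CPM in the selected cells of LDHA-deficient mice and 82.9, 4.56 and 0 in those of LDHA-sufficient mice, against 24.1, 20.2 and 18.2 and 154, 144 and 64.1 in other B cells. Each mouse was lower in its selected cells, and other B cells were higher in each LDHA-sufficient than in any LDHA-deficient mouse. Bcl6, the master factor of the germinal centre, was 0.77 lower (edgeR adjusted p = 0.077). With the germinal centre-like and non-B clusters described below left out, 3 of the list could be tested and 0 were called. Without the mouse block 0 were called, and without LDHA-sufficient mouse 2 it was 1.

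Cell division genes gave no call as a list. Of 8 proliferation genes 0 passed (median -0.60), and Cdk1 came closest at -1.24 (edgeR adjusted p = 0.0819), or -0.40 against other B cells of matched depth (edgeR adjusted p = 0.867). Among the falls shared by all 6 mice, Hist1h2ap, a replication-dependent histone, stood at 126, 39.8 and 54.7 CPM in the selected cells of LDHA-deficient mice and 31.9, 95.8 and 56.3 in those of LDHA-sufficient mice, against 167, 118 and 106 and 235, 284 and 228 in other B cells (-1.47, SE 0.21, edgeR adjusted p = 3.97e-06). Hist1h2ae fell by 1.39, the clamp loader subunit Rfc4 by 1.67, the spindle protein Ckap2l by 1.62 and the isoprenoid enzyme Idi1 by 1.40. Rgcc, a cell cycle regulator, had 3 UMIs in the selected cells and 212 in the others. The chaperones Hsp90aa1 and Dnajb1 fell by 0.62 and 1.39, the 2 calls among 8 genes of the dissociation stress list (median -0.25). Against other B cells of matched depth, Hist1h2ap had an edgeR adjusted p of 0.342 and Hsp90aa1 of 0.434. With the germinal centre-like and non-B clusters left out, Hist1h2ap differed by -0.37 (edgeR adjusted p = 0.683), Hsp90aa1 by -0.16 (0.744), Dnajb1 by -0.75 (0.537), Rfc4 by -0.95 (0.521) and Idi1 by -0.89 (0.291), none of them called, while Hist1h2ae stayed past the threshold at -0.63 (0.0243). Ckap2l and Rgcc could not be tested there.

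Marginal zone genes leaned upward, with 2 of 8 higher, 0 lower and a median of 0.59. Myof, a membrane repair protein, rose by 1.23 (edgeR adjusted p = 0.0384) and the tetraspanin Cd9 by 1.2 (edgeR adjusted p = 0.00603), Cd9 in 5 of 6 mice. Without barcodes that carry 2 or more myeloid, plasmacytoid dendritic or T and NK markers, Cd9 had an edgeR adjusted p of 0.306 and Myof of 0.062. Cr2, the complement receptor high on marginal zone cells, differed by 0.15. Fcrl5, an inhibitory receptor of marginal zone and memory cells, rose by 1.01 (SE 0.18, edgeR adjusted p = 2.87e-05) and was the 1 call among 7 genes of the memory and age-associated list (median 0.37). Follicular genes gave 0 calls of 7 (median -0.10), with Fcer2a, the low-affinity IgE receptor, at -0.45 (edgeR adjusted p = 0.0526).

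Among 13 activation genes 2 were higher and 0 lower (median -0.06). Cd69, the early activation antigen that retains cells in tissue and that type I interferon is known to induce, rose by 1.00 (SE 0.22, edgeR adjusted p = 0.00177, or 0.0852 without germinal centre-like and non-B clusters). The chemokine Ccl3 was also called, on 37 UMIs in selected and 16 in other cells, and it was higher in 2 of 6 mice. Myc and Nr4a1, targets of antigen receptor signalling, differed by -0.09 and 0.03. Plasma cell, transitional, plasmacytoid dendritic and T or NK genes gave 0 calls of 6, 5, 5 and 1 tested (medians -0.71, -0.07, 0.57 and 1.19). Mitochondrially encoded genes and glycolysis without Ldha gave 0 calls of 13 and 14 (medians -0.06 and -0.16), and Ldha differed by -0.17 (edgeR adjusted p = 0.78).

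Calls in lists of other cell types were few. Of 11 myeloid genes 2 were higher (median 0.98). Tyrobp, a signalling adaptor of myeloid and NK cells, rose by 1.58, with an edgeR adjusted p of 0.000806 in all barcodes and 0.792 without barcodes that carry markers of other types. Fcer1g, another signalling adaptor, rose by 1.61 and could not be tested without those barcodes. Of 5 red cell genes 1 was called (median 4.42), namely Alas2, a heme synthesis enzyme, with 44.7 and 153 CPM in LDHA-sufficient mice 1 and 3 and 0 in the other selected sums. Red cell markers were not used to leave barcodes out. With the barcodes that carry myeloid, plasmacytoid dendritic or T and NK markers left out, 59 of 70 genes of the type I list were higher. Under the settings tried 50 to 60 of that list were higher, except that 19 were in cells with exactly 2 rule genes, where 2 of the interferon-gamma list were.

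Antibody V segments gave 0 higher and 15 lower genes of 121 tested, against 163 higher (1.91%) and 86 lower (1.01%) of all 8528 genes. The 15 are part of those 86. A V segment counts the cells that chose it in recombination, so it marks clones rather than a shared programme.

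To place the selected cells among B cell states, cells were clustered without the rule genes, the interferon lists and related gene families. Of the 163 higher genes, 69 were on those lists. Higher genes outside them could enter the clustering, and whether that moved the placement was not tested. At a resolution of 1.2, rule genes were still among the leading genes of a cluster of 18 cells, described at the end. The clusters were thus not free of what travelled with the rule. Names come from marker genes and can differ from the study's. Of 10 clusters, the marginal zone-like one, which expressed Cr2, Cd1d1, Dtx1 and S1pr3, had the largest difference. It held 25.8, 18.8 and 25% of the selected cells in LDHA-deficient mice and 33.3, 25 and 11.5% in LDHA-sufficient mice, against 11.1, 8.75 and 12.3% and 15.7, 6.06 and 6.07% of other B cells. It was higher in 6 of 6 mice, by 13.2 percentage points on average (exact sign-flip test, two-sided, p = 0.031, which is the smallest 6 mice allow, and 0.104 after adjustment over 10 clusters). The adjusted value missed the threshold. A follicular-like cluster of low depth held 12.8 ± 3.59% of selected and 23.6 ± 4.07% of other cells (SD, n = 6 mice, exact sign-flip test, adjusted p = 0.104). The other follicular-like cluster held 15.7 ± 5.68% and 13.6 ± 3.60% (SD, n = 6 mice, exact sign-flip test, adjusted p = 0.781). The smaller germinal centre-like cluster held 1.62 ± 2.55% of selected and 3.46 ± 4.32% of other cells and was lower in 6 of 6 mice (SD, n = 6 mice, exact sign-flip test, adjusted p = 0.104). It held 2 selected cells in all, and none in LDHA-deficient mice or LDHA-sufficient mouse 3, where 0.265 to 1.62% of other cells lay in it. At such shares a lower value in the selected cells of these mice was likely in any case. The larger one held 3.62 ± 4.56% and 5.93 ± 5.71% and was lower in 5 of 6 mice (exact sign-flip test, adjusted p = 0.703). Pooled, the germinal centre-like clusters held 5.24 ± 6.69% and 9.38 ± 9.97% (exact sign-flip test, adjusted p = 0.417). Against other B cells of matched UMIs the difference of the low-depth follicular-like cluster turned to 4.47 percentage points higher, while that of the marginal zone-like cluster was 11.4. That setting kept all 131 selected cells and trimmed only the others, to 704 cells. The low-depth cluster had a median of 2887.5 UMIs, and whether the trimming turned its difference was not tested.

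The level of the type I list by state is a description, since the rule chose cells on genes that travel with it. Selected cells in the follicular-like clusters held 202 UMIs of the type I list per 10000, against 93.2 in other cells of these clusters. Levels were 127 against 81.2 in marginal zone-like cells, 177 against 101 in transitional-like cells, 127 against 66.0 in activated cells and 71.7 against 45.9 in germinal centre-like cells, of which 7 were selected, 1 of them with 3 or more rule genes. That germinal centre-like level was close to the 71.1 of B cells with no rule gene. The selected marginal zone-like cells were deeper, with a median of 7279.5 UMIs against 4571. The order of states was not tested.

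Heavy chains were found in 73 of the 131 selected cells (55.7%) and 1114 of the 1758 others (63.4%). Selected and other B cells alike were mostly unswitched, of class IgM or IgD, and mostly unmutated. IgM chains made up 62 of 73 (84.9%, exact 95% interval 74.6 to 92.2) against 776 of 1114 (69.7%, 66.9 to 72.3), and were higher in 6 of 6 mice by 16.4 percentage points on average (exact sign-flip test, two-sided, p = 0.031 and 0.0469 adjusted over 6 measures). By mouse the selected cells had 87.5, 92.3 and 100% IgM in LDHA-deficient mice and 80, 76.9 and 80% in LDHA-sufficient mice, against 66.2 to 68.1% and 68.4 to 75.7% of other cells. IgD chains made up 9 (12.3%) against 264 (23.7%, p = 0.0625 in the exact sign-flip test), and IgG or IgA 2 (2.74%) against 74 (6.64%, adjusted p = 0.0469 in the exact sign-flip test). That last difference, 3.47 percentage points lower, was 1.91 points lower and in 5 of 6 mice without the shared IgA chain described below (exact sign-flip test, adjusted p = 0.0938), and its adjusted p was 0.15 in the same exact test against other B cells of matched UMIs. No selected chain was IgG or IgA in LDHA-deficient mice (0 of 16, 13 and 6) or LDHA-sufficient mouse 3 (0 of 15). With so few chains a lower share is likely without any difference, so the p for IgG or IgA may be too small.

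V genes differing from germline were found in 5 of 73 selected (6.85%, exact 95% interval 2.26 to 15.3) and 175 of 1114 other cells (15.7%, 13.6 to 17.98). The share was lower in 6 of 6 mice, by 8.34 percentage points on average (exact sign-flip test, adjusted p = 0.0469). The 5 cells came from LDHA-sufficient mice 1 and 2 (2 of 10 and 3 of 13), and none was found in the other 4 mice. Those had 16, 13, 6 and 15 selected chains, so the limit given for IgG or IgA holds here too. With the germinal centre-like and non-B clusters left out, the shares were 4 of 68 and 84 of 960 and the difference was 2.77 points lower (exact sign-flip test, p = 0.4375), while IgM was 20.4 points higher (exact sign-flip test, adjusted p = 0.0938). Against other B cells of matched UMIs the adjusted p of the exact sign-flip test was 0.125 for IgM, which was then higher in 5 of 6 mice, and 0.0938 for V genes differing from germline. The 73 chains formed 73 clones, with 37 V genes, and no clone held 2 selected cells. An IgA chain shared by 193 barcodes of several mice was found in 0 selected cells, and without it the adjusted p was 0.0625 for both measures in the exact sign-flip test. Intervals cover counting error only.

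**Figure D4:**
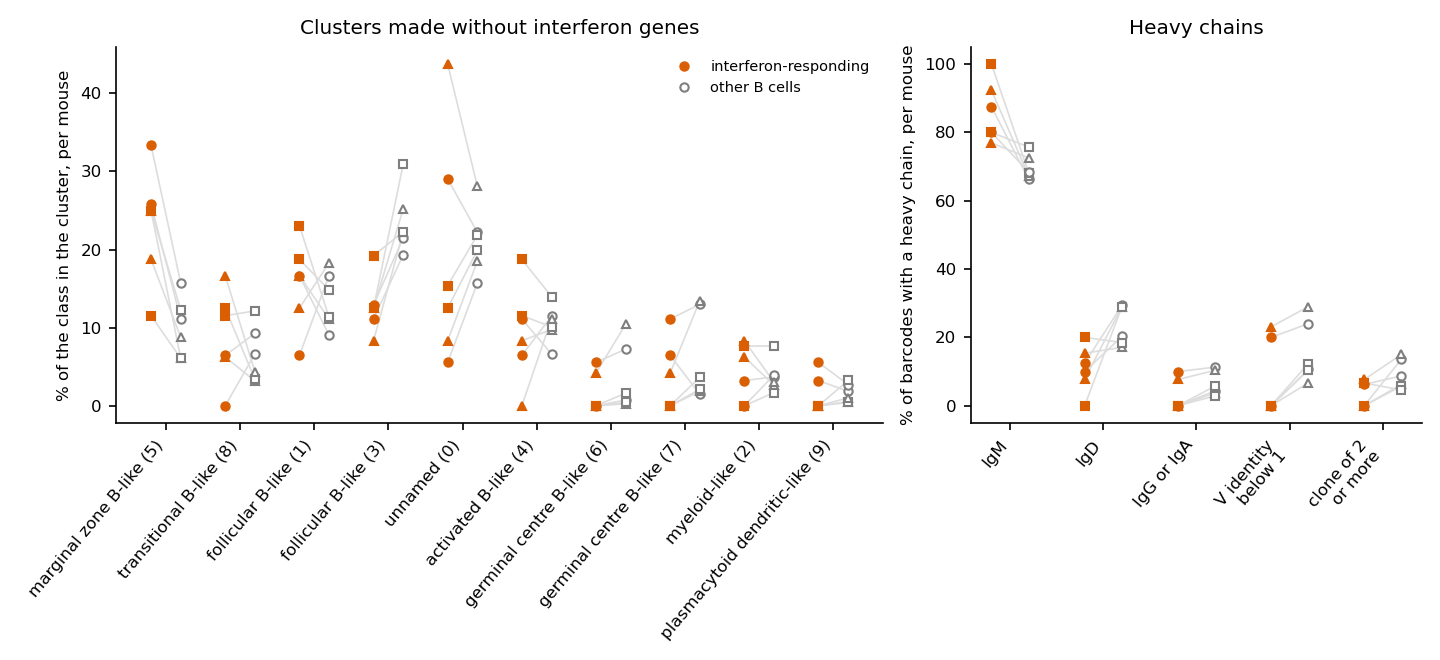
Left, the percent of each class in each of 10 clusters, and right, the percent of heavy chains of each kind, 1 pair of points per mouse (circles, triangles and squares are mice 1, 2 and 3 of either genotype). The marginal zone-like cluster and IgM are higher in interferon-responding cells in 6 of 6 mice.

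LDHA deficiency was compared next, since the rule did not use genotype. Selected cells were 31 of 301 B cells (10.3%, exact 95% interval 7.11 to 14.3), 16 of 393 (4.07%, 2.34 to 6.53) and 16 of 252 (6.35%, 3.67 to 10.1) in LDHA-deficient mice. They were 18 of 349 (5.16%, 3.09 to 8.03), 24 of 321 (7.48%, 4.85 to 10.9) and 26 of 273 (9.52%, 6.32 to 13.6) in LDHA-sufficient mice. The genotypes overlapped, with 6.91 ± 3.15% against 7.39 ± 2.18% (SD, n = 3 each, exact permutation test, two-sided, p = 0.8, smallest possible 0.1). After thinning to 2000 UMIs the means were 3.22 ± 0.853% and 3.37 ± 0.764% (exact permutation test, p = 0.5).

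Within the selected cells, 2495 genes could be tested between genotypes. Of these, 0 were higher (0%) and 2 were lower (0.0802%) in LDHA-deficient mice by the edgeR test, and 163 had an unadjusted p under 0.05. The lower genes were Mcm6, a helicase subunit of DNA replication, and an antibody segment. Mcm6 stood at 41.9, 0 and 10.9 CPM in LDHA-deficient mice, against 204, 146 and 72.3 in LDHA-sufficient mice, without overlap (-2.51, SE 0.51, edgeR adjusted p = 0.0152). These values rest on 8, 0 and 1 UMIs in LDHA-deficient and 32, 32 and 9 in LDHA-sufficient mice. In other B cells Mcm6 was also lower on average in LDHA-deficient mice, at 82.2 against 147 CPM. The segment, Igkv6-20, averaged 7.14 ± 6.19 against 406 ± 69.7 (SD, n = 3 each). Ldha was lower by 1.36 on the log2 scale (SE 0.36) with an edgeR adjusted p of 0.174, at 67.8 ± 17.8 against 178 ± 19.1 (SD, n = 3 each), so a loss of that size did not pass over this many genes at this depth.

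Interferon genes stood slightly higher in the selected cells of LDHA-deficient mice without a call. Of 65 tested, 58 had a positive and 7 a negative log2 difference, with a median of 0.42, against -0.02 over all 2495 genes, and 0 were called. Genotypes did not overlap for 14 of the 65, against 286 of all genes tested (11.5%). An unadjusted edgeR p under 0.05 was found for 18 of the 65, against 163 of all 2495 genes. Lgals3bp came closest, at 155 ± 60.3 CPM in LDHA-deficient and 55.3 ± 15.4 in LDHA-sufficient mice (1.51, SE 0.36, edgeR adjusted p = 0.0506). Among those with the highest levels, Ifi27l2a and Ly6a differed by 0.28 and 0.24, Ifi209 and Sp100 by 0.47 and 0.46, and Apobec3 by -0.11. The summed type I list did not overlap between genotypes over all selected cells, but did within both bands of rule genes. With 3 or more rule genes it stood at 207, 303 and 208 UMIs per 10000 in LDHA-deficient mice, against 163, 202 and 217 in LDHA-sufficient mice. With exactly 2 it stood at 131, 141 and 102, against 90.6, 102 and 112.

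**Figure D5:**
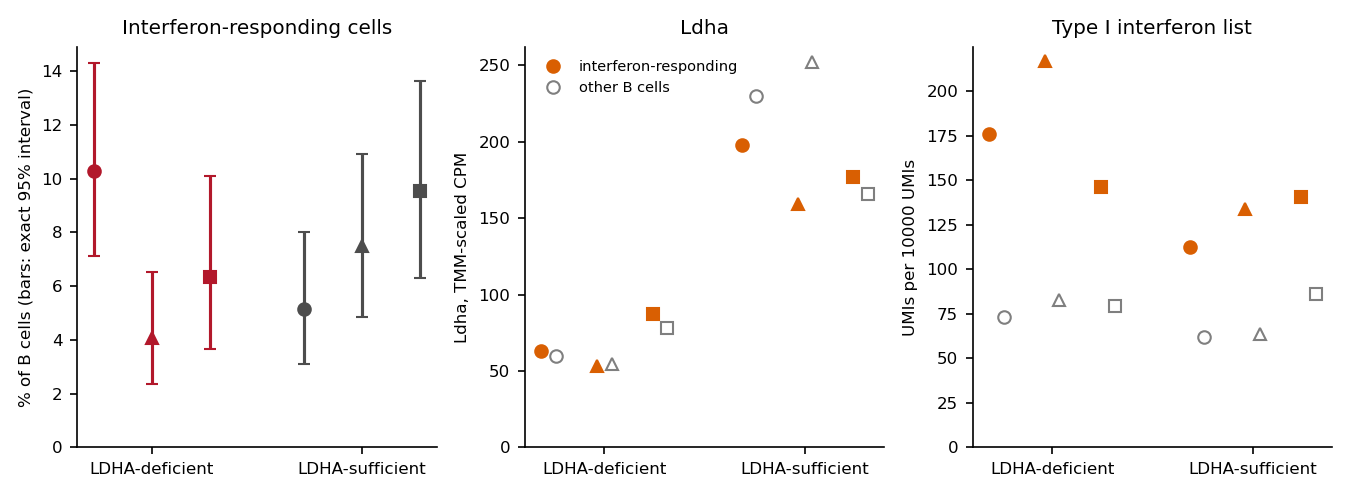
By mouse (circles, triangles and squares are mice 1, 2 and 3), the percent of B cells that were interferon-responding with exact 95% intervals, Ldha in TMM-scaled CPM, and the type I interferon list in UMIs per 10000. The shares of the genotypes overlap, Ldha is lower in each LDHA-deficient mouse, and the list in interferon-responding cells lies at 146 to 217 in LDHA-deficient and 113 to 140 in LDHA-sufficient mice, ranges that overlap once cells are split by the number of rule genes.

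The difference between selected and other B cells was also compared between genotypes in 1 model. Of 8528 genes, the difference was more positive in LDHA-deficient mice for 4 (0.0469%) and more negative for 5 (0.0586%), and none of the 9 was an interferon-stimulated gene. Among them 5 were antibody V segments. For Ldha this dependence was 0.37 on the log2 scale, with an edgeR adjusted p of 0.999.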

How the data were processed

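The 3 libraries of 1 lane were analysed: transcripts, hashtags and heavy chains of B cells from 6 mice. The authors deposited raw UMI counts per gene and barcode (2836 barcodes, 32285 genes) and raw UMI counts per hashtag (2831 barcodes). Heavy chains were deposited with the V identity to germline as a fraction, per the file headers. The tools were Cell Ranger 6.0.0 and Seurat 4.2.1, with mm10 as genome build, per the submitters' processing notes. No source used here gives the clone caller.

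A barcode was assigned to a mouse when its largest hashtag count was at least 20 and at least 3 times the second. The 926 of 2831 barcodes within that ratio were left out, and whether they hold cells of different mice or weak staining was not tested. No doublet caller was run, and pairs of cells from 1 mouse stay in. The members, gene lists and markers were chosen with earlier results of these data known. Sums of UMI counts over the cells of each class in a mouse were tested with edgeR 4.0.16 (R 4.3.3, TMM, filterByExpr, quasi-likelihood, robust, Benjamini-Hochberg adjusted p under 0.05). The mouse was a block between classes, since both sums come from the same animal. Hashtag numbers pair no mice between genotypes. The 7 rule genes and Cd79a stayed in library sizes and out of the tests. The procedure was tested on simulated data. Shares over mice were compared with exact permutation and exact sign-flip tests, and shares of cells carry Clopper-Pearson intervals, which cover counting error only.

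Clusters were made with scanpy 1.11.5 and igraph 0.11.9 (Leiden resolution 0.8, 2000 variable genes, 30 components, 20 neighbours). The rule genes, the interferon lists and related gene families were left out. Clusters were named with at least 3 markers that were 1.5-fold above other cells and in at least 10% of the cluster. Promoter letters and gene names come from RefSeq tables on GRCm38.p6. Of 80 genes on the type I list, 77 were matched.

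Genes are named by a fixed rule: the 7 rule genes and Ldha, the 15 largest rises and 10 largest falls past the threshold with 1 sign in 6 mice (antibody segments and predicted genes left out), up to 4 called genes of each list or the 2 with the smallest p, and for genotype the calls, or the 3 smallest p where none passed, and interferon genes of the highest level. Stat2, Irf9, Irf7, Irf1, Ciita, Ifnar1, Jak1, Tlr9, Tap1, B2m, H2-K1, H2-D1, Cr2, Myc, Nr4a1, Bcl6 and Rgs13 were added for their roles after their values were seen. A few genes that the rule names are not reported here. Alternatives were DESeq2 1.42.0, library totals without TMM, other filters, other rule thresholds, barcodes or clusters left out, other B cells of matched UMIs (within the quartile range of the selected cells of the same mouse) and each mouse left out. For matched UMIs the selected cells were not trimmed, so those outside the quartile range stayed in without counterparts. Barcodes with markers of other cell types were those with 2 or more myeloid, plasmacytoid dendritic or T and NK markers. Red cell markers were not used there. Exactly 2 rule genes, the clusters left out, the shared IgA chain left out and matched UMIs were chosen after seeing the data.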

Additional observations from a re-analysis of the deposited data

Results flagged for a closer look

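For 9 genes the difference between interferon-responding and other B cells depended on genotype in edgeR, at 0.0469% more positive and 0.0586% more negative of 8528 genes. Siglech, a marker of plasmacytoid dendritic cells (adjusted p = 0.026), had 32, 1 and 0 UMIs in interferon-responding cells of LDHA-deficient mice and 1, 0 and 0 in those of LDHA-sufficient mice, against 23, 35 and 2 and 50, 1 and 59 in other B cells. A single mouse holds nearly all of its UMIs in interferon-responding cells. Bhlhe40, a transcription factor of activated lymphocytes (adjusted p = 0.0334), had 1, 0 and 0 UMIs in interferon-responding cells of LDHA-deficient mice and 4, 21 and 3 in those of LDHA-sufficient mice, against 42, 61 and 43 and 59, 52 and 38 in other B cells. Nrgn, a calmodulin-binding protein (adjusted p = 0.00925), had 0 UMIs in interferon-responding cells of each LDHA-deficient mouse and 5, 1 and 6 in those of LDHA-sufficient mice, against 79, 14 and 12 and 8, 10 and 9 in other B cells.

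The other 6 were the antibody V segments Igkv9-129 (adjusted p = 0.000147), Ighv1-64 (0.0201), Igkv2-137 (0.0201), Ighv1-9 (0.0227) and Igkv15-103 (0.0257) and the predicted gene Gm16867 (0.0201). Of Igkv9-129, 1711 UMIs were in the other B cells of LDHA-sufficient mouse 1, and of Igkv15-103, 10774 were in those of LDHA-sufficient mouse 3. Interferon-responding cells held 4 UMIs of Igkv9-129 and 2 of Igkv15-103, all in LDHA-deficient mice.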

How the results depend on the processing

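The genotype difference in the share of interferon-responding cells (-0.48 percentage points, LDHA-deficient minus LDHA-sufficient) changed sign with 3 or more rule genes (0.862) and lay between -2.18 and 0.938 with 1 mouse left out, above 0 without LDHA-deficient mouse 2 or LDHA-sufficient mouse 3. Genes differing from other B cells numbered 249, 77 with exactly 2 rule genes and 156 to 262 with 1 mouse left out. Without the replicate block, which pairs the classes of each mouse, there were 151, of which 143 were higher and 8 lower. Higher and lower counts were 182 and 33 in DESeq2, 160 and 160 without a filter, 180 and 163 with 10 or more UMIs, 151 and 173 with 3 or more rule genes, 145 and 164 without Isg15, 169 and 137 without barcodes with markers of other cell types, 142 and 63 without the deepest 10% of barcodes, 147 and 44 against matched UMIs and 200 and 60 without germinal centre-like and non-B clusters. Of 976 values of the 46 called named genes under other settings, 833 stayed past the threshold, 143 did not and 0 changed sign.

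The 2 genes between genotypes became 23 without a filter, 4 with Ifit3 and Ifit3b counted as 1 or without germinal centre-like and non-B clusters, 1 in DESeq2, with a hashtag ratio of 5, without the deepest 10% or with exactly 2 rule genes, 0 with 3 or more rule genes or without Isg15, and 2 to 22 with 1 mouse left out, 22 without LDHA-sufficient mouse 3. The 9 genes whose difference depends on genotype became 2 in DESeq2, 20 without TMM, 19 without a filter, 24 with 10 or more UMIs, 3 with Ifit3 and Ifit3b as 1, 26 with 2 or more Cd79a UMIs, 15 without barcodes of other cell types, 15 without germinal centre-like and non-B clusters and 2 to 35 with 1 mouse left out. The cause was not tested.

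Heavy chain results kept their direction. The adjusted p missed the threshold without the shared IgA chain (differences in percentage points of -6.95 for V identity below 1, -5.35 for below 0.99 and 15.3 for IgM), against matched UMIs (-8.71, -7.18 and 14.9), without germinal centre-like and non-B clusters (-2.77, -2.35 and 20.4), with 3 or more rule genes (-6.83, -7.94 and 16.5), without Isg15 (-10.8, -8.06 and 16.6) and without the deepest 10% (-5.94, -5.03 and 18.9). With 1 mouse left out they were -9.20 to -7.55, -7.50 to -5.62 and 13.3 to 18.8, where 5 mice cannot give a p under 0.0625. The marginal zone-like difference lay between 12.1 and 14.8 with 1 mouse left out. The median of the type I list was 0.71 with exactly 2 rule genes and 1.27 to 1.46 with 1 mouse left out. The mitochondrial difference (0.0220 points) lay between -0.0469 and 0.105 with 1 mouse left out and the hashtag difference (66.1 counts) between -14.9 and 97.3. Among named genes that were not called, the sign changed for Ifnar2 (-0.0618) and Myb (0.10) without the deepest 10%, for Mcm5 (0.23) without germinal centre-like and non-B clusters, for Mcm5 (0.17), Myb (0.19) and Ldha (0.17) against matched UMIs, and for Ccr9 (-0.33) in DESeq2.

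Depth limits these comparisons. The smallest sum of interferon-responding cells held 69763 UMIs from 16 cells, and a cell with few UMIs has fewer chances to meet the rule. Barcodes with 2 cells of 1 mouse stay in. With 3 mice a genotype, shares cannot reach an exact p below 0.1.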

Other observations

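At a finer Leiden resolution of 1.2, with the same genes left out of the clustering, a cluster of 18 cells appeared of which 9 (50%) met the rule. It carried follicular markers that included Ighd, Ccr7 and Icosl, and Ifit3b, Ifit3, Rsad2, Ifit1, Ifit2, Usp18 and the antiviral gene Ifi44 were among its 10 leading genes. Leaving the interferon genes out thus did not keep what travels with them out of this cluster. Its median depth was 3098 UMIs, below the 5377 of all interferon-responding cells. At this resolution the marginal zone-like cluster held 38 interferon-responding cells among 250 (15.2%), and a proliferating-like cluster of 68 cells held 8 (11.8%), which was 6.40 ± 5.39% of interferon-responding and 3.65 ± 1.98% of other B cells (SD, n = 6 mice), higher in 4 of 6 mice (exact sign-flip test, adjusted p = 0.4375).

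Cells with 5 or more rule genes numbered 14, 5 and 4 for 5, 6 and 7 genes. Their median UMIs were 3733, 7183 and 4351.5. The 5 cells with 6 genes had the highest median of any number of rule genes, and the 14 cells with 5 genes the lowest. The 14 cells with 5 genes came from every mouse, 6, 1 and 1 from LDHA-deficient and 2, 2 and 2 from LDHA-sufficient mice.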
